A study of Mus musculus with 8 samples.

Results

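Tnf, the gene of the inflammatory cytokine TNF, and 9 genes that carry or restrain NF-kB signaling (Nfkb1, Nfkb2, Rel, Relb, Nfkbia, Nfkbiz, Bcl3, Tnfaip3 and Birc3) were followed in macrophages of mouse epididymal white adipose tissue (eWAT). The 10 genes were chosen by symbol, and all 10 were found once in each table, among 16136 genes listed in both. Adhesion-related macrophages (ARMs) were sorted from the adipocyte layer of collagenase-digested eWAT after the adipocytes were lysed by vortexing with beads, and stromal vascular fraction macrophages (SMs, named NARM in the sample labels) were sorted from the stromal cells. Wild-type male C57BL/6J mice entered the study at 6 weeks of age and were kept on a normal chow diet (ND mice) or on a high-fat diet for 8 weeks (HFD mice). Each of the 4 groups (HFD ARM, HFD SM, ND ARM and ND SM) had 2 RNA-seq libraries, and a library was made from a pool of 6 mice on the HFD or 10 on the ND. The way cells were freed differed between ARMs and SMs, so cell type and preparation cannot be told apart. Depth, as the sum of estimated counts, was 18415520 and 18288775 for ARMs of HFD mice and 19040133 and 18992793 for their SMs. For ND mice it was 16319038 and 14508824 (ARMs), then 14861075 and 15833762 (SMs). Levels are given as FPKM, which divides fragments by transcript length and library depth. Each of the 10 genes took between 0.00616% (Relb in an ND SM library) and 0.194% (Tnfaip3 in an HFD ARM library) of a library's counts.

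TNF binds receptors on the cell surface that recruit adaptor proteins and ubiquitin ligases, and the kinase complex they switch on marks IkB proteins for destruction. NF-kB dimers, held in the cytoplasm by IkB, then enter the nucleus and turn on inflammatory genes. Among these are genes that end the response, such as Nfkbia, which makes new IkB-alpha, and Tnfaip3, which makes the ubiquitin editor A20. In obese adipose tissue macrophages are known as a main source of TNF.

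The genes lie on different chromosomes of the mouse genome (RefSeq, build GRCm38.p6), and only Relb and Bcl3 share one. Their Entrez gene identifiers are 21926 (Tnf), 18033 (Nfkb1), 18034 (Nfkb2), 19696 (Rel), 19698 (Relb), 18035 (Nfkbia), 80859 (Nfkbiz), 12051 (Bcl3), 21929 (Tnfaip3) and 11796 (Birc3). Tnf spans chr17:35199367-35202007, Nfkbia chr12:55489409-55492647, Tnfaip3 chr10:19000910-19015410 and Bcl3 chr7:19808462-19822824. Nfkb1 spans chr3:135584655-135691969, Nfkb2 chr19:46300994-46312400, Rel chr11:23736847-23770969, Relb chr7:19606217-19629438, Nfkbiz chr16:55811375-55838954 and Birc3 chr9:7847468-7873205. Nfkb2 overlaps Psd, which was itself measured at a mean of 31.0 FPKM, so reads of these 2 genes may not be fully separated. The counts of Relb and Birc3 were not whole numbers in any of the 4 HFD libraries (tolerance 1e-06), as happens when reads are shared out between similar genes, and these 2 genes are less certain than the others.

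Promoter sequences from RefSeq (build GRCm38.p6; 250 bases before to 50 bases after a transcription start) were matched for 7 of the 10 genes, all but Nfkb1, Relb and Nfkbiz. On the FPKM scale, 5 genes had higher levels in the HFD libraries than in the ND libraries in ARMs and in SMs alike (Tnf, Nfkbia, Tnfaip3, Bcl3 and Relb). Of all genes, 25.3% were higher in this way in ARMs and 23.8% in SMs, each cell type taken alone. The diets were normalized separately, so diet and table cannot be told apart. The promoters of the first 4 genes are shown. Capitals mark matches to the kB consensus (GGG, a purine, any pair of bases, a pair of pyrimidines, then CC), searched on both strands, with a stretch that matches on both counted once. All 4 promoters are on the minus strand and are written 5′ to 3′ in the direction of transcription, from chr17:35201958-35202257 (Tnf), chr12:55492598-55492897 (Nfkbia), chr10:19015361-19015660 (Tnfaip3) and chr7:19822706-19823005 (Bcl3).
Tnf: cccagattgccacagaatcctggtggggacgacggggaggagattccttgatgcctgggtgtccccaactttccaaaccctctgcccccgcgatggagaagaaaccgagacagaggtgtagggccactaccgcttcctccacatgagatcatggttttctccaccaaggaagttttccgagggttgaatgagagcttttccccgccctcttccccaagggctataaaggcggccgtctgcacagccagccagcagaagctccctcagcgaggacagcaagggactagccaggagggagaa
Nfkbia: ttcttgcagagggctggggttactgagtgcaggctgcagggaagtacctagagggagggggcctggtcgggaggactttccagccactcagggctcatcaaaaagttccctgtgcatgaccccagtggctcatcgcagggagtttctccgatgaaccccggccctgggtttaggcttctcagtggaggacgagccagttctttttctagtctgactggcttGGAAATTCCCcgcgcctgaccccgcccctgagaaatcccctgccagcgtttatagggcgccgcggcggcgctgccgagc
Tnfaip3: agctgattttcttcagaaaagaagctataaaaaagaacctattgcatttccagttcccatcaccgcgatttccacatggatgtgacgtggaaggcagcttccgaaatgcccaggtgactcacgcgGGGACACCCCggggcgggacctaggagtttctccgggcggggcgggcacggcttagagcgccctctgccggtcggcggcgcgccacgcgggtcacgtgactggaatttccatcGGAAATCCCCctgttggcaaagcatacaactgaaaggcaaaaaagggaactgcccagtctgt
Bcl3: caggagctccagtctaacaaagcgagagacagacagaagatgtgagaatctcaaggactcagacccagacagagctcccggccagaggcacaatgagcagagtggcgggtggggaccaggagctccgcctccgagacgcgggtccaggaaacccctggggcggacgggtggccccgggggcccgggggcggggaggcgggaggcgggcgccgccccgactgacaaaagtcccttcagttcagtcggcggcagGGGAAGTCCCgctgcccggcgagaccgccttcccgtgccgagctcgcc
The Tnfaip3 promoter held 2 matches, the Nfkbia and Bcl3 promoters 1 each, and the Tnf window none. Rel and Nfkb2 also held matches, among them GGGACTTTCC in Nfkb2, and Birc3 held none. In all, 5 of the 7 genes had a match in at least 1 listed promoter, against 9.55% of the 27025 genes with a promoter in the table, and 8.46% of all 32851 promoters of 300 bases held a match. The genes were chosen for their place in NF-kB signaling, and Nfkb2 and Tnfaip3 had more than 1 listed promoter, so these shares test nothing. A match describes these letters only, and no binding was measured here.

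Tnf and Nfkbia were among the most abundant transcripts of these cells. Ranked by FPKM among the genes in both tables, Nfkbia stood between 44 and 105 in the 8 libraries, and Tnf between 60 and 213. In each group Nfkbia had the highest mean level of the 10 genes and Relb the lowest, from 1075 to 40.7 FPKM in HFD ARMs and from 628 to 32.4 FPKM in ND SMs. Nfkbiz, Tnfaip3 and Birc3 stood between these, with group means from 159 FPKM (Birc3 in HFD ARMs) to 543 FPKM (Nfkbiz in ND SMs). The subunit genes Nfkb1, Nfkb2, Rel and Relb were at group means of 32.4 to 90.0 FPKM. Neighbours in this order were often closer than their replicates: in HFD ARMs Bcl3 was at 90.8 ± 1.77 FPKM (SD, n = 2) and Nfkb2 at 90.0 ± 8.23 FPKM (SD, n = 2).

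**Figure D1:**
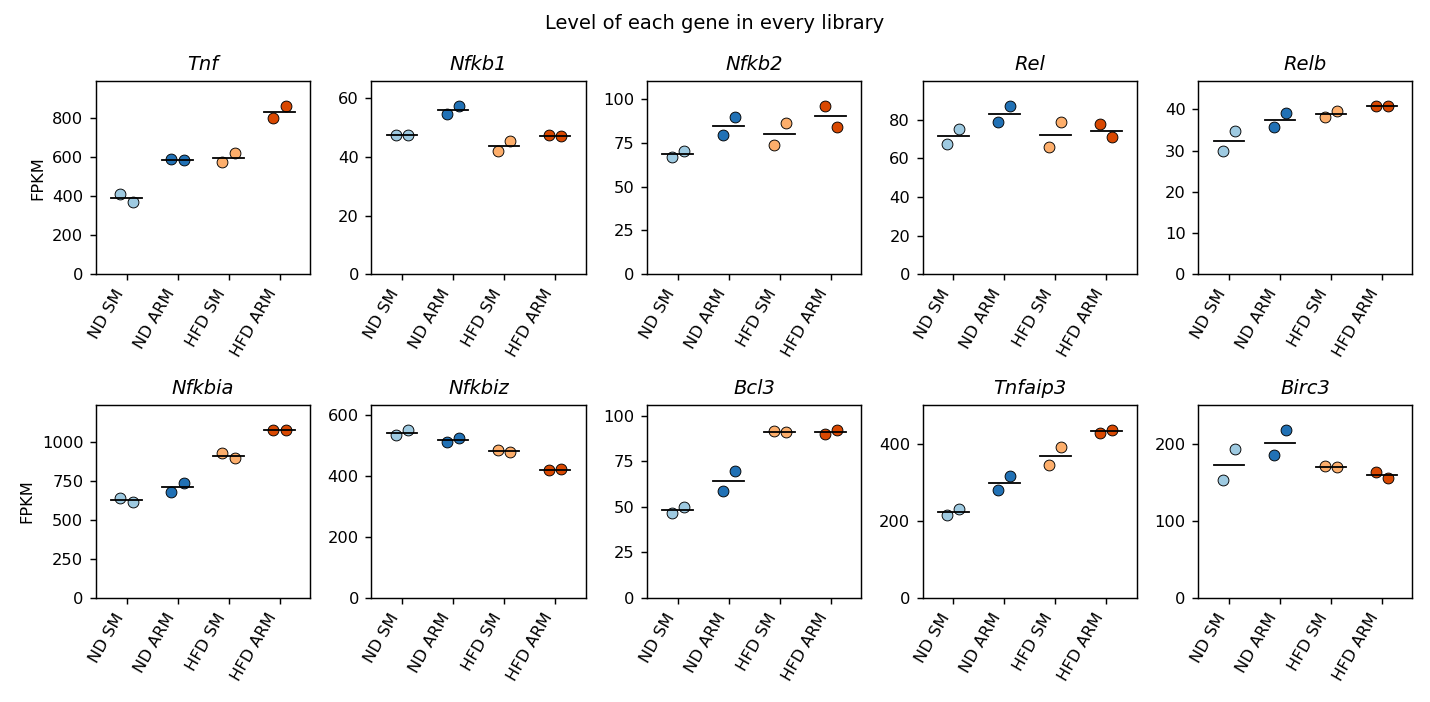
FPKM of each of the 10 genes in every library, 1 point per library and a bar at the mean of the 2 libraries of a group, with each vertical axis starting at 0. Tnf, Nfkbia and Tnfaip3 were lowest in ND SMs and highest in HFD ARMs, and Nfkbiz ran the other way, from 543 FPKM in ND SMs to 422 FPKM in HFD ARMs.

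The first question was whether ARMs and SMs of the same diet differed in the level of Tnf. In HFD mice Tnf was at 797 and 859 FPKM in the ARM libraries and at 573 and 620.4 FPKM in the SM libraries. In ND mice it was at 587 and 584 FPKM in ARMs and at 409 and 369 FPKM in SMs. Both ARM libraries lay above both SM libraries in each diet, and HFD SMs overlapped ND ARMs on the FPKM scale. On the scales of TPM (length-scaled abundance with a fixed total per library) and CPM (depth-scaled counts with TMM factors over all 8 libraries) both HFD SM libraries were above both ND ARM libraries. Fewer cells of a type and less RNA per cell cannot be told apart in such bulk libraries. ARMs were compared with SMs on the rounded estimated counts with edgeR's quasi-likelihood test and Benjamini-Hochberg adjustment over all genes, and calls needed more than a 1.5-fold difference together with an adjusted p below 0.05. For Tnf the HFD log2 fold change was 0.44 (standard error 0.07, edgeR adjusted p = 0.00221), a 1.36-fold difference that passed the adjusted p and not the fold threshold. In ND mice its log2 fold change was 0.59 (standard error 0.10, edgeR adjusted p = 0.00217), a 1.51-fold difference that passed both. The ND call rested on a narrow margin over the fold threshold, since leaving out replicate 2 of the ND ARMs gave a log2 fold change of 0.58, leaving out replicate 2 of the ND SMs gave 0.52, and Tnf was then called in neither. In HFD mice the adjusted p was 0.0702 without replicate 2 of the HFD ARMs and 0.0568 with no filter on low counts, and it ranged from 6.72e-09 to 0.0702 over 11 alternatives.

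Adipocyte markers, like Tnf, had higher levels in ARMs. The 15 adipocyte markers summed to 538 and 602 FPKM in HFD ARMs against 231 and 191 FPKM in HFD SMs, and to 267 and 399 FPKM in ND ARMs against 162 and 209.9 FPKM in ND SMs (14 of the 15 listed in the ND table). Of those tested, 11 of 14 were called higher in HFD ARMs and 8 of 13 in ND ARMs, and for Lep and Plin4 the difference between diets passed (edgeR adjusted p = 0.0380 and 0.0389), but not when any of the 4 HFD libraries or either ND SM library was left out (adjusted p = 0.0654 to 0.242 for Lep and 0.0776 to 0.206 for Plin4). Fabp4 was the most abundant of them, at 359 and 414 FPKM in HFD ARMs against 138 and 97.4 FPKM in HFD SMs, and at 138 and 197 FPKM in ND ARMs against 79.9 and 118 FPKM in ND SMs. Adipoq, known as an adipocyte hormone gene, was at 13.0 and 15.7 FPKM in HFD ARMs against 1.90 and 1.99 FPKM in HFD SMs, and at 7.61 and 13.7 FPKM in ND ARMs against 2.92 and 4.72 FPKM in ND SMs. ARM and SM libraries did not overlap for either gene in either diet. Their part in the Tnf difference was not tested. The macrophage markers summed to 15608 to 17072 FPKM in the HFD libraries and 18097 to 18922 FPKM in the ND libraries, all 13 were above 0 in every library, and none of the 13 was called in either diet. At the adjusted p alone, Cd163 was lower in HFD ARMs (log2 fold change -0.39, edgeR adjusted p = 0.0107).

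Of the 4 subunit genes among the 10 (Nfkb1, Nfkb2, Rel and Relb), none passed the adjusted p in either diet, though Nfkb2 in ND mice did in 1 of 11 alternatives (range 0.00535 to 0.609); Rela is given with the other pathway genes. Nfkb1 makes the p50 precursor p105, and stood at 47.4 and 47.2 FPKM in HFD ARMs against 41.9 and 45.5 FPKM in HFD SMs. In ND mice Nfkb1 was at 54.7 and 57.3 FPKM in ARMs and at 47.6 and 47.5 FPKM in SMs, with a log2 fold change of 0.22 (standard error 0.09, edgeR adjusted p = 0.258). On the FPKM and TPM scales the ARM values of Nfkb1 exceeded the SM values in either diet. On the CPM scale the HFD groups overlapped. Nfkb2, which makes the p52 precursor of the non-canonical arm, had the highest fold change of these 4 genes in both diets. Its log2 value was 0.14 (standard error 0.09) in HFD mice and 0.30 (standard error 0.10, edgeR adjusted p = 0.115) in ND mice. Over left-out libraries the HFD value ranged from 0.03 to 0.26 for Nfkb2 and from 0.03 to 0.16 for Nfkb1, ranges that overlapped. Rel encodes c-Rel and Relb the partner of p52. Their log2 fold changes were 0.01 and 0.03 in HFD mice, within their standard errors, and 0.22 each in ND mice. The HFD value of Rel changed sign when replicate 1 of the HFD ARMs or of the HFD SMs was left out (-0.07 and -0.11).

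The IkB family gave mixed directions. Nfkbia, the gene of the inhibitor IkB-alpha, was at 1074 and 1075 FPKM in HFD ARMs and 927 and 895 FPKM in HFD SMs, and at 678 and 738 FPKM in ND ARMs and 642 and 615 FPKM in ND SMs. The ARM libraries lay above the SM libraries in both diets. The HFD log2 fold change of 0.21 (standard error 0.06, edgeR adjusted p = 0.0487) passed the adjusted p by little, and the value of 0.17 in ND mice (standard error 0.10, edgeR adjusted p = 0.487) did not. Nfkbiz makes the nuclear protein IkB-zeta, a co-activator at a subset of NF-kB target genes, and was lower in ARMs. It was at 420.2 and 423 FPKM in HFD ARMs and 487 and 481 FPKM in HFD SMs (log2 fold change -0.23, standard error 0.06, edgeR adjusted p = 0.0325). In ND mice it was at 512 and 525 FPKM in ARMs and 535 and 552 FPKM in SMs (log2 fold change -0.07, standard error 0.10, edgeR adjusted p = 0.838). The groups of each diet did not overlap on the FPKM and CPM scales, while the ND groups overlapped on the TPM scale. The HFD results of Nfkbia and Nfkbiz kept an adjusted p under 0.05 in 5 and 4 of 11 alternatives, with adjusted p values from 0.0113 to 0.257 and from 0.0024 to 0.263. Bcl3, which binds p50 and p52 homodimers in the nucleus, was at 89.6 and 92.1 FPKM in HFD ARMs and 91.3 and 90.9 FPKM in HFD SMs, which overlapped on this scale, while both ARM libraries were below both SM libraries on the TPM and CPM scales. In ND mice Bcl3 was at 58.4 and 69.7 FPKM in ARMs and 46.8 and 49.8 FPKM in SMs, higher in ARMs without overlap on all 3 scales (log2 fold change 0.41, standard error 0.11, edgeR adjusted p = 0.0428). The ND result of Bcl3 passed the adjusted p in 6 of 11 alternatives, from 0.000162 to 0.441.

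Tnfaip3 and Birc3 encode proteins that act on ubiquitin. Tnfaip3, whose product A20 removes and edits ubiquitin chains on signaling proteins of the TNF receptor, was at 430.1 and 437 FPKM in HFD ARMs and 346 and 392 FPKM in HFD SMs. In ND mice it was at 281 and 316 FPKM in ARMs and 217 and 230.1 FPKM in SMs. ARM and SM libraries were apart in both diets. The log2 fold change was 0.20 in HFD mice (standard error 0.07, edgeR adjusted p = 0.099) and 0.42 in ND mice (standard error 0.10, edgeR adjusted p = 0.0268), and over 11 alternatives the adjusted p ranged from 0.0219 to 0.427 (1 under 0.05, without replicate 2 of the HFD SMs) for HFD and from 8.25e-06 to 0.266 (7 under 0.05) for ND. Birc3, the gene of the ubiquitin ligase cIAP2, was at 163 and 156 FPKM in HFD ARMs and 171 and 169.6 FPKM in HFD SMs. In ND mice it was at 185 and 218 FPKM in ARMs and 153 and 193 FPKM in SMs, which overlapped. Its log2 fold change was -0.12 in HFD mice (standard error 0.06, edgeR adjusted p = 0.27) and 0.23 in ND mice (standard error 0.12, edgeR adjusted p = 0.431), where 1 of 11 alternatives was under 0.05 (range 0.0465 to 0.989).

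**Figure D2:**
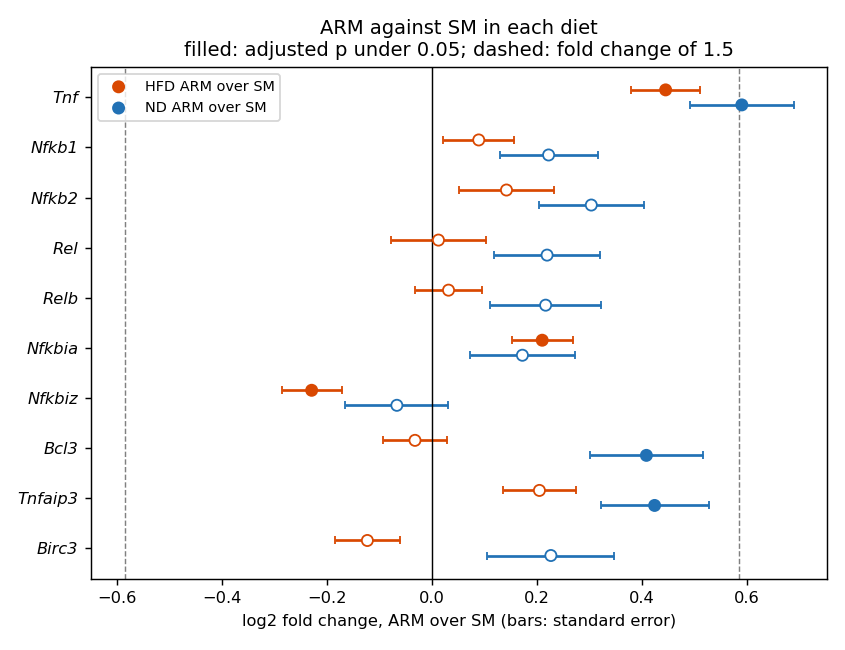
Log2 fold change of ARMs over SMs for each of the 10 genes in HFD and in ND mice, with bars of 1 standard error from the edgeR fit of 2 libraries against 2; filled points had an adjusted p under 0.05 and dashed lines mark a fold change of 1.5. Tnf had the highest value in each diet (0.44 and 0.59), and Nfkbiz was below 0 in both.

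Counted together, 0 of the 10 genes were called in HFD mice, where 4.75% of the 13337 genes tested were called, and 1 of 10 (Tnf) in ND mice, where 3.68% of 12441 were called. DESeq2 and limma on log2(FPKM + 1) also called 0 (HFD) and 1 (ND). The ND call was lost with no filter on low counts and at the threshold of the study's methods section (a log2 fold change over 0.6), which left 0 of 10. At an unadjusted p under 0.05 in edgeR there were 4 of 10 in HFD mice and 6 of 10 in ND mice, against 23.2% and 14.9% of all genes. At an adjusted p under 0.05 whatever the fold, a rule added after the data were seen, there were 3 genes in HFD mice (Tnf and Nfkbia higher, Nfkbiz lower) beside 9.55% of all genes, and 3 in ND mice (Tnf, Tnfaip3 and Bcl3, all higher) beside 4.73%. The median log2 fold change of the 10 genes was 0.06 in HFD mice, where that of all genes tested was -0.01, and 0.22 in ND mice, where that of all genes tested was -0.02. The FPKM of both ARM libraries exceeded that of both SM libraries for 5 of the 10 genes in HFD mice, beside 26.5% of 10858 genes with a mean of at least 1 FPKM, and for 8 in ND mice, beside 18.3%. Both ARM libraries were below both SM libraries for 2 genes in HFD mice (Nfkbiz and Birc3), beside 24.0% of all genes, and for 1 in ND mice (Nfkbiz), beside 23.7%. On the CPM scale, added after the data were seen, ARMs were higher for 3 genes in HFD mice (Tnf, Nfkbia and Tnfaip3, beside 21.7% of all genes) and lower for 3 (Nfkbiz, Bcl3 and Birc3, beside 31.5%), and Nfkb1 and Relb overlapped.

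Whether the ARM to SM difference itself changed with diet was tested as an interaction in 1 edgeR fit of all 8 libraries. None of the 10 genes passed, and 22 of 13358 genes did (0.165%). The number of genes passing ranged from 0 (without replicate 2 of the ND SMs) to 102 (without replicate 1 of the ND ARMs) over left-out libraries, and none of the 10 passed in any of these. At an unadjusted p under 0.05 there were 2 of the 10 genes, Bcl3 and Birc3, beside 7.61% of all genes, and DESeq2, which passed 80 genes of the 3309 it gave an adjusted p, passed none of the 10. The difference of log2 fold changes, HFD minus ND, was -0.46 for Bcl3 (standard error 0.12, edgeR adjusted p = 0.221), -0.36 for Birc3 (standard error 0.15, edgeR adjusted p = 0.599) and -0.16 for Tnf (standard error 0.11, edgeR adjusted p = 0.840). It was below 0 for 9 of the 10 genes, with a median of -0.19, where that of all genes was -0.03. The exception was Nfkbia at 0.02.

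The diets were then set side by side without a test, because the HFD and ND tables were normalized separately and were not made in the same way. Of the estimated counts, 32.3% to 32.9% were not whole in the HFD libraries and 8.55% to 9.36% in the ND libraries. The transcript length implied by counts and FPKM was 1.06 times as long in the HFD table as in the ND table at the median gene, and 1.01 (Nfkb1) to 1.10 (Nfkbia) times as long for the 10 genes, so FPKM understates their HFD level relative to counts. Diet and table cannot be told apart.
In SMs Bcl3 had the highest HFD to ND ratio, 1.89 on the FPKM scale, with 91.3 and 90.9 FPKM in HFD mice against 46.8 and 49.8 FPKM in ND mice. Tnfaip3 followed at a ratio of 1.65, Tnf at 1.53 and Nfkbia at 1.45. In ARMs Nfkbia had the highest FPKM ratio, 1.52, followed by Tnfaip3 at 1.45, Bcl3 at 1.42 and Tnf at 1.42. The order below Nfkbia differed on the CPM scale, with Tnf at 1.55, Bcl3 at 1.54 and Tnfaip3 at 1.52. The HFD and ND libraries did not overlap for any of these 4 genes in either cell type. On the CPM scale the ratios were 1.52 to 1.67 in ARMs and 1.64 to 2.12 in SMs. In both cell types the summed FPKM of immediate-early and heat shock genes, given below, was also higher in both HFD libraries than in both ND libraries. That of the macrophage markers was lower. Their part in the diet ratios was not tested.
In the FPKM of ARMs, 5 of the 10 genes (Tnf, Relb, Nfkbia, Bcl3 and Tnfaip3) were higher in both HFD libraries than in both ND libraries, beside 25.3% of all genes, and 4 were lower (Nfkb1, Rel, Nfkbiz and Birc3), beside 49.0%. Rel in ARMs was apart on the FPKM scale only, and overlapped between the diets on the TPM and CPM scales, where 3 genes were lower, beside 46.6% (TPM) and 39.9% (CPM) of all genes. Nfkb2 in ARMs overlapped on the FPKM and TPM scales and was higher in HFD mice on the CPM scale, which made 6 genes higher, beside 34.0%. In SMs, 6 were higher (the same 5 and Nfkb2), beside 23.8%, and 2 were lower (Nfkb1 and Nfkbiz), beside 53.0%; Nfkb1 in SMs overlapped on the TPM scale. Relb had FPKM ratios of 1.09 in ARMs and 1.20 in SMs. The median log2 ratio of all genes was itself -0.13 in ARMs and -0.17 in SMs on the FPKM scale, and -0.03 and -0.02 on the CPM scale, so part of each ratio moves with the scale. The median of the 10 genes was 0.11 in ARMs and 0.24 in SMs on the FPKM scale and 0.22 and 0.41 on the CPM scale. Nfkb1 and Nfkbiz were below 0 on the FPKM, TPM and CPM scales in both cell types. Birc3 in SMs had a log2 ratio of -0.02 on the FPKM scale and 0.10 on the CPM scale, and its groups overlapped on both.

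**Figure D3:**
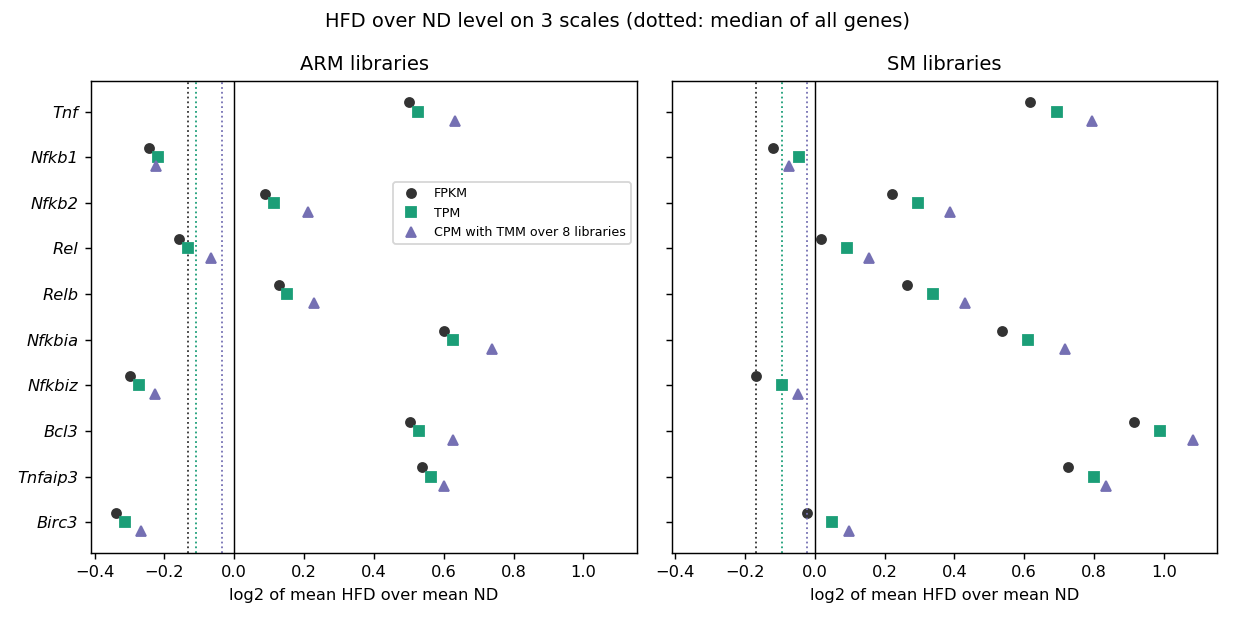
Log2 ratio of the mean HFD to the mean ND level of each of the 10 genes in ARMs (left) and SMs (right) on the FPKM, TPM and CPM scales, each mean over 2 libraries; dotted lines mark the median of all genes on the same scale. Tnf, Nfkbia, Bcl3 and Tnfaip3 lay to the right of the other 6 genes in both cell types and on each scale.

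Other genes of the pathway were taken from lists written for this tissue with earlier results of these data known. Of the 8 genes that process TNF or control its mRNA, 1 was called in each diet, beside 4.75% (HFD) and 3.68% (ND) of all genes. It was Timp3, an inhibitor of the TNF-releasing protease ADAM17. Adipocyte and stromal markers were higher in the same ARM libraries, and their part in the level of Timp3 was not tested. Timp3 was at 11.01 and 11.1 FPKM in HFD ARMs against 5.31 and 4.28 FPKM in HFD SMs (log2 fold change 1.18, standard error 0.10). It was at 2.98 and 6.33 FPKM in ND ARMs against 1.59 and 2.41 FPKM in ND SMs (log2 fold change 1.21, standard error 0.28). Zfp36, whose product tristetraprolin destabilizes Tnf mRNA, was the most abundant gene of this list at a mean of 3129 FPKM, and its log2 fold changes were 0.03 (HFD) and 0.19 (ND) (edgeR adjusted p = 0.827 and 0.431). Zfp36l1 came next at a mean of 434 FPKM, with -0.06 and -0.05. Rhbdf2 and Zc3h12a passed the adjusted p in ND mice at log2 fold changes of 0.56 and 0.45.
None of the 13 receptor and adaptor genes was called, and Traf1 passed the adjusted p in HFD mice (log2 fold change 0.54). Tnfrsf1a, the gene of TNF receptor 1, was at a mean of 157 FPKM with log2 fold changes of -0.15 (HFD) and 0.05 (ND), and Ripk1, the kinase it recruits, at 98.4 FPKM with -0.18 and 0.06. None of the 16 genes of kinases and linear ubiquitin was called either. Map3k8, which makes the kinase TPL2 held by p105, had the highest mean level among them at 121 FPKM, and its log2 fold change was -0.47 under HFD (standard error 0.07, edgeR adjusted p = 0.00165) and -0.34 under ND (standard error 0.10, edgeR adjusted p = 0.0599). Tab2 followed with 58.9 FPKM and log2 fold changes of 0.02 and 0.05.
Of the 4 other NF-kB and IkB genes none was called, and 2 (Rela and Nfkbib) passed the adjusted p in ND mice. Rela, which encodes the p65 subunit, was at 97.4 and 110.1 FPKM in ND ARMs against 78.3 and 82.9 FPKM in ND SMs (log2 fold change 0.38, standard error 0.10, edgeR adjusted p = 0.0479). In HFD mice Rela was at 125 and 117 FPKM in ARMs against 108 and 111 FPKM in SMs (log2 fold change 0.11, edgeR adjusted p = 0.339). The ARM libraries lay above the SM libraries in both diets. Nfkbid had a mean of 219.6 FPKM, and Nfkbib, at 116 FPKM, had a log2 fold change of 0.49 in ND mice (standard error 0.10, edgeR adjusted p = 0.00863) and 0.16 in HFD mice (edgeR adjusted p = 0.209). Of 12 other negative regulators 1 was called in both diets, Tnip3, which encodes a partner of A20, with log2 fold changes of 0.73 (standard error 0.12) and 0.63 (standard error 0.15). Tank, the most abundant of these at 113 FPKM, had a log2 value of 0.06 (HFD) and 0.57 (ND) (edgeR adjusted p = 0.647 and 0.00267), and Tax1bp1, at 53.9 FPKM, -0.13 and 0.02. Pdlim2 passed the adjusted p in HFD mice, lower in ARMs (log2 fold change -0.39).

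Of the pathway lists, the 2 lists of NF-kB target genes held most of the calls. Because the lists were chosen with earlier results of these data known, their shares of calls describe them and test nothing. Of the target cytokines and chemokines, 5 of 20 tested were called in HFD mice and 8 of 19 in ND mice, all higher in ARMs, where 4.75% and 3.68% of all genes were called, and the median log2 fold change of the list was 0.38 and 0.43. Adipocyte and stromal markers were higher in the same ARM libraries, and their part in the levels of the target genes was not tested. Ccl3 and Ccl4, which attract monocytes and T cells, had log2 fold changes of 0.97 and 1.01 in HFD mice (standard errors 0.08 and 0.06) and 1.47 and 1.38 in ND mice (standard errors 0.10 and 0.12). Cxcl2, a neutrophil attractant and the most abundant gene of the list, was at 3942 and 3533 FPKM in HFD ARMs against 2972 and 2826 FPKM in HFD SMs, and at 3329 and 3179 FPKM in ND ARMs against 1979 and 2070 FPKM in ND SMs. It was called in ND mice (log2 fold change 0.68) and not in HFD mice (0.34), and its interaction did not pass (edgeR adjusted p = 0.356). Il1a and Cxcl3 were called in both diets, with log2 fold changes of 0.80 and 0.85 in HFD mice and 1.18 and 1.12 in ND mice. Cxcl1 (0.71), Cxcl10 (0.78) and Csf1 (0.95) were called in ND mice, where Csf1 was at 4.02 FPKM or less, and Ccl5 (0.95) in HFD mice. Ccl2, at a mean of 1130.0 FPKM, was called in neither (0.27 and 0.25).
Of the other target genes, 5 of 22 tested were called in HFD mice and 5 of 21 in ND mice, all higher in ARMs, with list medians of 0.31 and 0.44. Olr1 and Ptx3 were called in both, with log2 fold changes of 0.95 and 0.65 in HFD mice and 0.78 and 2.25 in ND mice. Both were low, at means of 6.155 and 6.15 FPKM, and Ptx3 was at 1.9 and 4.02 FPKM in ND SMs. Vcam1 (0.71), Bcl2a1d (0.89) and Nos2 (1.72) were called in HFD mice, and Nlrp3 (0.70), Plaur (0.63) and Ptgs2 (0.65) in ND mice. Nos2 was at 0.48 FPKM or less in every library, and reads of Bcl2a1d may be shared with its near-identical copies. Ier3 had the highest mean level of the list at 739 FPKM and was lower in HFD ARMs (log2 fold change -0.36, standard error 0.07, edgeR adjusted p = 0.0119), while Marcksl1, at a mean of 550.0 FPKM, had -0.07 and 0.15. None of the genes of the 7 lists passed the interaction test.

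**Figure D4:**
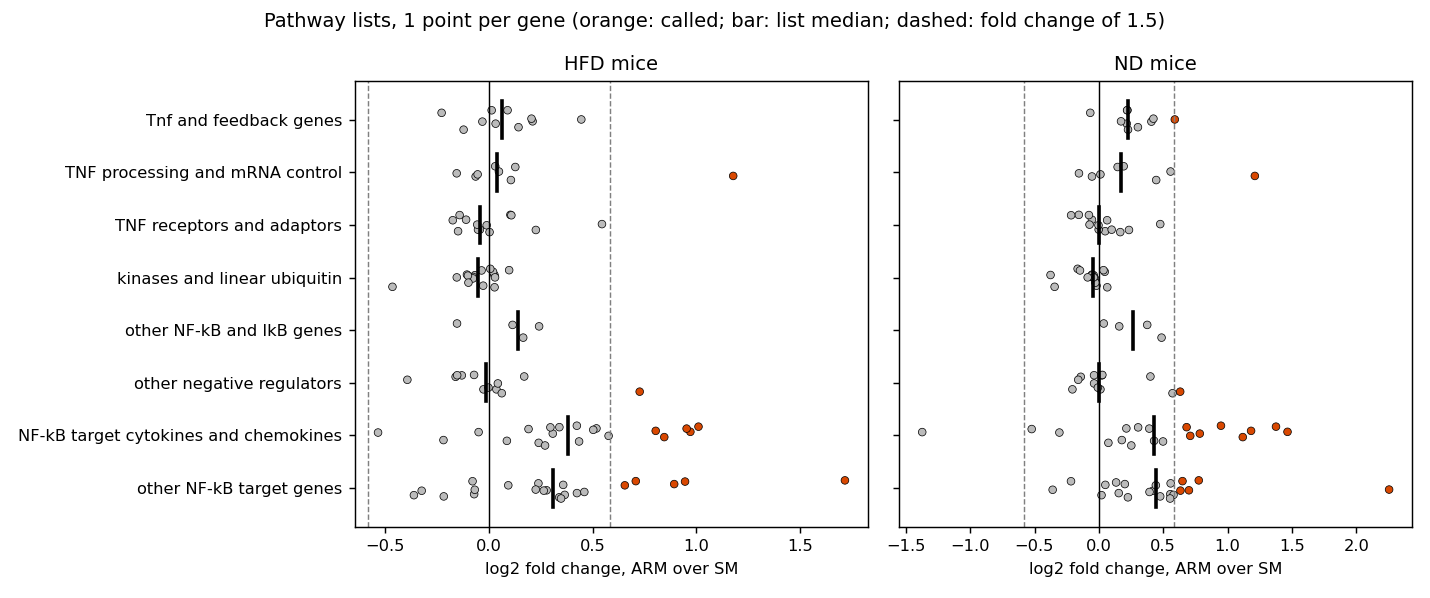
Log2 fold change of ARMs over SMs for every tested gene of the 10-gene set and of the 7 pathway lists, in HFD mice (left) and ND mice (right); orange points were called, black bars mark list medians and dashed lines a fold change of 1.5. The 2 lists of target genes have the highest medians in both diets, 0.38 and 0.31 in HFD mice and 0.43 and 0.44 in ND mice, and the Tnf and feedback genes lie within a fold change of 1.5 except Tnf in ND mice.

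Genes known to respond to cell handling were also measured. The 24 immediate-early and heat shock genes summed to 9637 and 10109.7 FPKM in HFD ARMs against 11173 and 10857 FPKM in HFD SMs, and to 8227 and 8859.6 FPKM in ND ARMs against 9310.1 and 9499 FPKM in ND SMs. At an adjusted p under 0.05, 8 were lower (Fos, Jun, Junb, Atf3, Ier2, Klf2, Klf4 and Hspa1a) and 1 (Hspb1) higher in HFD ARMs, and 4 lower (Fos, Jun, Ier2 and Klf2) and 1 higher (Fosl1) in ND ARMs. Klf2 was called lower in HFD ARMs (log2 fold change -0.62), Fosl1 was called higher in ND ARMs (0.83), and Fosl1 also passed the interaction (-0.997, edgeR adjusted p = 0.0167), which was lost without replicate 1 or 2 of the HFD ARMs or of the ND SMs (adjusted p = 0.0520 to 0.130). On the mean of the 8 libraries Junb was the most abundant, with Egr1 above it in replicate 2 of the ND SMs (1756 FPKM). Junb was at 1627 and 1703 FPKM in HFD ARMs and 1936 and 1914 FPKM in HFD SMs. In ND mice Junb was at 1592 and 1805 FPKM in ARMs and 1762 and 1640.4 FPKM in SMs, which overlapped. The list's median log2 fold change was -0.18 (HFD) and -0.08 (ND). The part of handling in the levels of Tnf and its feedback genes was not tested.
Several lists of stromal cell markers had higher sums in ARMs. The 10 endothelial markers summed to 58.7 and 56.2 FPKM in HFD ARMs and 23.9 and 16.8 FPKM in HFD SMs, with 9 of 10 called, and to 14.6 and 31.1 FPKM in ND ARMs and 11.8 and 13.7 FPKM in ND SMs, with 1 called. On the mean of the 8 libraries Cldn5 was the most abundant, at 14.0 FPKM or less. In both ND SM libraries Cdh5 (2.34 and 2.7 FPKM) was above Cldn5 (2.23 and 2.39 FPKM). The 9 fibroblast and progenitor markers, led by Dcn, summed to 175 and 215 FPKM in HFD ARMs against 131 and 118 FPKM in HFD SMs (5 called), and to 228 and 330.3 FPKM in ND ARMs against 81.2 and 111 FPKM in ND SMs (8 called). The 7 mesothelial markers summed to 18.3 and 24.0 FPKM in ND ARMs against 5.28 and 7.04 FPKM in ND SMs (6 called), and none was called in HFD mice. Upk3b had the highest mean of these markers over the 8 libraries, with Krt19 above it in replicate 1 of the ND SMs (1.66 against 1.46 FPKM). The 8 pericyte and smooth muscle markers summed to 32.0 FPKM or less in every library, with 3 called in each diet. Rgs5 had their highest mean over the 8 libraries, while in both ND SM libraries Tagln (2.4 and 2.0 FPKM) was above Rgs5 (1.64 and 1.84 FPKM). Of the 6 lymphatic endothelial markers 3 were called in each diet, while their sum, 405 to 735 FPKM, was lower in HFD ARMs than in HFD SMs, overlapped between ND ARMs and ND SMs, and was nearly all Lyve1, which macrophages also express.
Markers of other leukocytes were low. The most abundant gene of each list on the mean of the 8 libraries is given in brackets. The neutrophil markers (Csf3r) summed to 37.0 to 90.1 FPKM and the monocyte markers (Ccr2) to 30.2 to 84.6 FPKM. The dendritic cell markers (Fscn1) summed to 9.68 to 15.8 FPKM and the T and NK cell markers (Cd4) to 4.05 to 5.94 FPKM. The B cell markers (Cd79b) summed to 3.66 to 5.85 FPKM and the mast cell markers (Mcpt4) to 1.95 to 4.76 FPKM. In both ND SM libraries S100a9 was above Csf3r, and Zbtb46 (5.52 and 5.75 FPKM) above Fscn1 (1.84 and 2.13 FPKM). In replicate 2 of the ND SMs Tpsb2 and Cma1 (0.94 FPKM each) were above Mcpt4 (0.67 FPKM). Of these lists, the only calls in HFD mice were Cd4, the mast cell marker Kit and the monocyte marker Chil3, each higher in ARMs, and in ND mice the neutrophil marker S100a9, lower in ARMs. No marker was at 0 in every library; Trac and Ighm were not matched by symbol. The part of these cells in the levels of Tnf and its feedback genes was not tested.

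**Figure D5:**
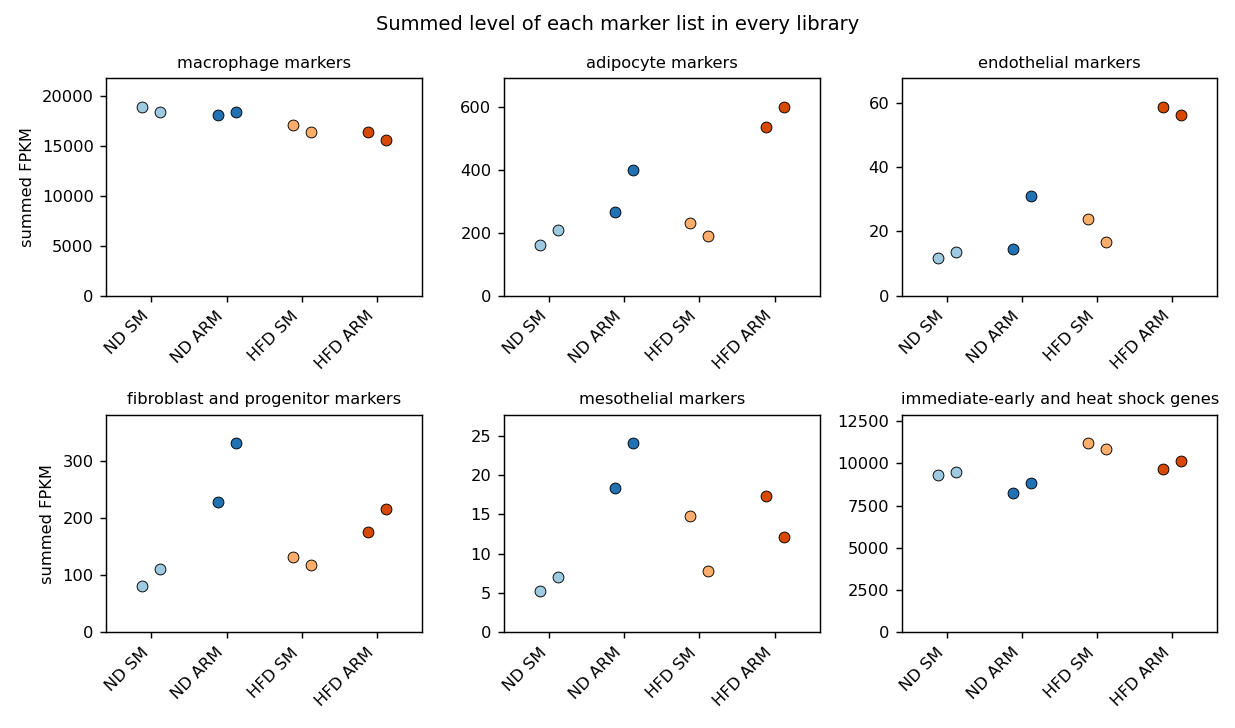
Summed FPKM of the macrophage, adipocyte, endothelial, fibroblast and progenitor, and mesothelial markers and of the immediate-early and heat shock genes in each of the 8 libraries, 1 point per library and axes from 0. Adipocyte markers were higher in both ARM libraries than in both SM libraries of each diet, while macrophage markers stayed between 15608 and 18922 FPKM.

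Among 9435 other genes tested in both diets with a mean over 5 CPM in each, Il1a was most like Tnf across the 8 libraries, with a Pearson r of 0.990 between log2 CPM values centred within each diet. Clec4e (0.985), Plekhn1 (0.984), Efhd2 (0.983) and Slc6a8 (0.982) followed. Of the feedback genes, Tnfaip3 (0.906), Nfkb1 (0.892) and Nfkbia (0.884) were nearest to Tnf, and Nfkbiz was at -0.791. The genes most like Nfkbia were Ergic1 (0.986), Tlr13 (0.983), Ly6c1 (0.980), Agpat2 (0.980) and Pcx (0.978). These values describe 8 libraries that share 2 cell types, and no p is attached.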

How the data were processed

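RNA of sorted ARMs and SMs was sequenced for the authors by BGI on an Illumina platform (the study's methods section). The submitters' processing notes name the build mm10; the aligner, counting program and annotation are not given in the sources used here. For each diet the authors deposited estimated (expected) counts per gene and library, and FPKM and TPM values. The deposited estimated counts, which are not normalized by the authors, were rounded, and each diet was then fitted with edgeR 4.0.16 in R 4.3.3 (TMM, filterByExpr, quasi-likelihood test, Benjamini-Hochberg adjustment), and over all 8 libraries for the interaction. Levels and diet ratios use the deposited FPKM and TPM and a TMM-scaled CPM. The scripts were tested on simulated data. Alternatives were DESeq2 1.42.0, limma 3.58.1, other scalings, no filter, the threshold of the study's methods section, a replicate block and each library left out. An exact permutation test of 2 against 2 libraries cannot give a two-sided p under 0.333, and p-values measure the spread between pooled libraries. The chi-square per gene between replicates was 4.06 to 9.59, more spread than counting alone gives. Named genes were the 10 members and genes of each pathway list called in either diet or among its 2 most abundant. They also included the most abundant gene of each marker list on the mean of the 8 libraries, and the 5 genes most like Tnf and Nfkbia. Rela, Rhbdf2, Zc3h12a, Traf1, Pdlim2, Cd163, Adipoq, Lep, Plin4, Kit, Chil3, S100a9 and the immediate-early and heat shock genes other than Junb were named after their values were seen. So were Cdh5, Tagln, Krt19, Zbtb46, Tpsb2 and Cma1. Members and lists were chosen with earlier results of these data known. Figures were drawn with matplotlib in Python.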

Additional observations from a re-analysis of the deposited data

Results flagged for a closer look

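Ripk1 and Nfkbid, 2 genes of the pathway lists, had ARM and SM libraries apart in opposite directions in the 2 diets on the FPKM scale. Ripk1 was at 71.1 and 73.3 FPKM in HFD ARMs against 78.8 and 82.0 FPKM in HFD SMs, and at 124 and 122 FPKM in ND ARMs against 115 and 121 FPKM in ND SMs. Its difference of log2 fold changes, HFD minus ND, was -0.2558 (edgeR adjusted p = 0.560). Nfkbid was at 249 and 239 FPKM in HFD ARMs against 276 and 259 FPKM in HFD SMs, and at 185 and 188 FPKM in ND ARMs against 182 and 179 FPKM in ND SMs, and its difference was -0.2085 (edgeR adjusted p = 0.715). Neither difference passed the interaction test. Their ND log2 fold changes were 0.06 and 0.04 (edgeR adjusted p = 0.838 and 0.913). Of genes with a mean of at least 1 FPKM, 24.0% were apart and lower in HFD ARMs, and 18.3% apart and higher in ND ARMs. The share in both positions was not counted. Of the 10 members, none was in this position on the FPKM scale, but Bcl3 was on the TPM and CPM scales (lower in HFD ARMs, higher in ND ARMs), and its difference did not pass the interaction test (edgeR adjusted p = 0.221).
For 3 genes of the marker and handling lists the difference of log2 fold changes, HFD minus ND, passed the interaction test: 1.803 for Lep (edgeR adjusted p = 0.0380), 1.925 for Plin4 (edgeR adjusted p = 0.0389) and -0.9968 for Fosl1 (edgeR adjusted p = 0.0167). Over 12 alternatives that gave an adjusted p, Lep and Plin4 passed in 6 each (ranges 0.00131 to 0.242 and 6.44e-05 to 0.206) and Fosl1 in 8 (range 0.000674 to 0.130).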

How the results depend on the processing

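Calls for ARMs against SMs depended on the tool and threshold. In HFD mice 634 genes were called, and 381 with DESeq2, 181 with no filter, 331 with limma on log2(FPKM + 1), 1017 at the methods section's threshold (log2 fold change over 0.6, unadjusted p under 0.05) and 1274 at the adjusted p alone, a rule added after the data were seen. In ND mice 458 were called, and 266 with DESeq2, 627 with no filter, 214 with limma, 888 at the methods section's threshold and 589 at the adjusted p alone. Leaving out 1 library gave 214 to 637 calls in HFD mice (309 without replicate 1 and 214 without replicate 2 of the ARMs) and 188 to 661 in ND mice (188 without replicate 2 of the ARMs, 254 without replicate 1 of the SMs); the lone library left in a group is assumed to vary like the other group.
Of the 10 members, 0 were called in HFD mice under every alternative but the adjusted p alone (3). In ND mice 1 was called, 3 at the adjusted p alone, and 0 with no filter or at the methods section's threshold, where Tnf lay just under the fold asked for; left-out libraries gave 0 to 1. Rel in HFD mice ranged from -0.11 to 0.15 on the log2 scale over left-out libraries, -0.07 without replicate 1 of the ARMs. The HFD to ND log2 ratio of Birc3 in SMs was 0.050 on the TPM and 0.10 on the CPM scale. On the CPM scale in place of FPKM, added after the data were seen, 3 members in place of 5 were higher in both HFD ARM libraries than in both HFD SM libraries, and on the TPM scale 0 in place of 1 was lower in ND ARMs. The cause was not tested.
The interaction passed 22 genes, 41 with no filter, 80 with DESeq2 (of 3309 genes that its filter left with an adjusted p) and 0 to 102 over left-out libraries: 2 without replicate 1 or 2 of the HFD ARMs or replicate 1 of the ND SMs, 10 without replicate 2 of the HFD SMs, 102 and 48 without replicate 1 and 2 of the ND ARMs, and 0 without replicate 2 of the ND SMs, where edgeR gave 1127 genes an unadjusted p under 0.05.
The labels give replicates only a number and do not say whether same-numbered ARM and SM libraries came from the same mice. Deviations of same-numbered libraries correlated at -0.028 in HFD mice and 0.221 in ND mice. With the replicate number as a block the calls were 673 (HFD), 786 (ND) and 187 (interaction), and 0 and 1 members; Nfkb2 and Birc3 in ND mice had adjusted p under 0.05 with this block alone (0.00535 and 0.0465).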
